A study of Mus musculus with 48 samples.

Results

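The nuclear genome encodes most subunits of the oxidative phosphorylation machinery, and 82 of the 47729 genes in the count table were taken here as its members, by symbol and not by any measured value. They are the protein-coding genes whose symbols begin with Ndufa, Ndufb, Ndufc, Ndufs or Ndufv and a digit (complex I, 37 genes), the succinate dehydrogenase genes Sdha to Sdhd (complex II, 4), the Uqcr genes (complex III, 8), the nuclear Cox genes of the Cox4 to Cox8 families except Cox7a1 and Cox8b (complex IV, 16) and the Atp5 genes (complex V, 17). Cox7a1 and Cox8b were set apart as brown adipocyte markers. A gene was assigned to the complex its symbol names, which for a few symbols is not where later work places the protein: Ndufa4 is now counted with complex IV, Atp5sl (also called Dmac2) is known as a complex I assembly protein, and Cox7a2l as an assembly factor of respiratory supercomplexes.

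Complexes I and II pass electrons from NADH and succinate to ubiquinone, complex III passes them on to cytochrome c, and complex IV hands them to oxygen. Complexes I, III and IV pump protons across the inner mitochondrial membrane, and complex V lets them flow back to make ATP. Brown fat is rich in mitochondria and can spend the gradient as heat through Ucp1, and it is known for a low content of complex V relative to the respiratory chain.

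The study made 48 poly(A) libraries from brown (BAT), subcutaneous (SFAT) and visceral (EFAT) fat of male mice, in 12 groups of 4. The mice were wild type (Cth+/+) or lacked Cth (Cth-/-), the gene of the cystathionine gamma-lyase that makes cysteine, and received a control diet (CTRL) or one without cystine (CysF) for 6 days. Within each depot the 4 groups were therefore Cth+/+ CTRL, Cth+/+ CysF, Cth-/- CTRL and Cth-/- CysF. The labels give no age, strain or deletion design, and do not say that replicate numbers stand for separate animals, so the p-values measure the spread between libraries. Whole tissue was ground, and a lower level can mean fewer cells of a type or less RNA per cell, which cannot be told apart in these data.

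Library totals ran from 22067580.0 to 46031118 counts for BAT, from 16245832 to 39001462 for SFAT and from 18711900.0 to 36110293 for EFAT. Cth itself had 0 to 6 reads in the 24 Cth-/- libraries and 8 to 389 in the 24 Cth+/+ libraries. Ucp1 measured 2328 to 4078 counts-per-million (CPM) in BAT of wild-type mice on the control diet, 1.54 to 54.8 in SFAT and 0 to 0.190 in EFAT. Markers of adipocytes in general summed to 15291 to 15891, 17884 to 21137 and 20429.5 to 24738 CPM in these groups. The members together took 1.25 to 3.24% of the counts of a library in BAT, 0.679 to 1.57% in SFAT and 0.658 to 1.15% in EFAT. Reads of the pseudogene Gm43512 separate the libraries into those under 0.1 CPM (set A) and the others (set B), a split that no label names and that crosses the groups unevenly. Some values lay close to the cut, such as 0.0651 CPM in SFAT replicate 18 and 0.119 CPM in EFAT replicate 2. Within groups holding both sets the members were lower in set B, by a median log2 of -0.24 in BAT (66 of 80 members lower), -0.21 in SFAT (63 of 80) and -0.32 in EFAT (67 of 80, in the 3 groups that hold both). All genes over 1 CPM shifted by medians of -0.04, -0.02 and -0.01 in the same comparison. The mitochondrially encoded share of counts in BAT was 21.8 to 27.9% in set A and 28.6 to 45.7% in set B. It was 7.06 to 11.5% and 9.35 to 31.3% in SFAT, and 4.82 to 9.48% and 6.70 to 14.7% in EFAT. The share of the members in BAT was 2.35 to 3.24% in set A and 1.25 to 2.28% in set B. Neither share overlapped between the sets in BAT, so set and shares cannot be told apart there. Results on the members are therefore also given with the set in the model or with set A alone where that moves them.

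Of the 82 members, 80 had enough reads to be tested in BAT and SFAT and 79 in EFAT. Cox7b2 and Cox8c, isoforms known from testis, had at most 4 and 7 reads in any library and were tested nowhere, and Cox6a2 was not tested in EFAT. For 22 members most libraries held counts that were not whole numbers, which arises when reads fit more than one gene. They are Ndufa11, Ndufa12, Ndufb4, Ndufb8, Ndufb11, Ndufs3, Ndufs5 and Ndufs6 in complex I and Uqcrb and Uqcrh in complex III. The others are Cox5b, Cox6c, Cox7a2l and Cox7c in complex IV, and Atp5f1, Atp5g1, Atp5g2, Atp5h, Atp5j2, Atp5k, Atp5l and Atp5o in complex V. The values of all these genes are less certain for that reason.

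In wild-type mice on the control diet the members were far higher in brown than in white fat. Against SFAT 76 of 80 members passed the test as higher in BAT and 1 as lower, with a median log2 difference of 2.26 (4.80-fold), where 53% of all genes tested were called, 25.9% higher and 27.1% lower. Against EFAT the counts were 76 and 1 of 80, with a median of 2.64 (6.25-fold), where 60% of all genes tested were called, 26.9% higher and 33.1% lower. The median difference from EFAT was 3.05 for complex III, 3.00 for complex II, 2.77 for complex IV, 2.62 for complex I and 2.14 for complex V. Complex V had the smallest median of the 5 also against SFAT (1.96, against 2.20 to 2.67 for the others), and no test between complexes was run. The complexes shared their order of libraries in several groups: in BAT of wild-type mice on the control diet replicate 2 was lowest and replicate 3 highest for all 5.

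**Figure D1:**
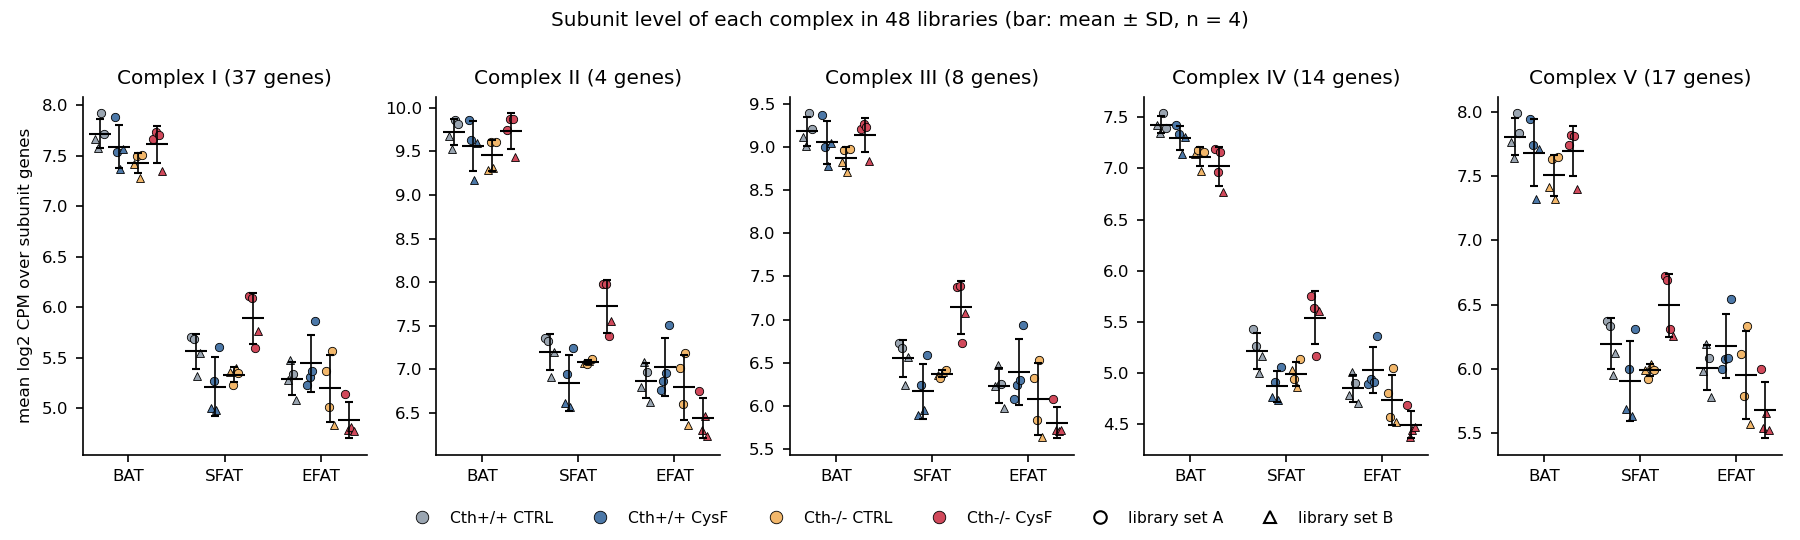
Level of each complex in the 48 libraries: the y axis is the mean log2 CPM over the members with a mean of at least 1 CPM, the x axis the 12 groups, circles are set A and triangles set B libraries, and bars give the mean ± SD (n = 4). All 5 complexes stand highest in BAT, and within SFAT the Cth-/- CysF group has the highest mean for each complex.

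Among the genes with the largest difference from EFAT were Cox5a, a nuclear subunit of complex IV (log2 3.61 ± 0.32, edgeR adjusted p = 1.9e-12), Cox7b (3.36 ± 0.18, edgeR adjusted p = 7.2e-19) and Uqcrfs1, the Rieske iron-sulfur protein of complex III (3.20 ± 0.33, edgeR adjusted p = 9.1e-11). Against SFAT they were Cox5a (3.04 ± 0.31, edgeR adjusted p = 1e-10), Uqcrc1, a core protein of complex III (2.98 ± 0.20, edgeR adjusted p = 1.6e-15), and Ndufv1, the NADH-binding subunit of complex I (2.92 ± 0.24, edgeR adjusted p = 3e-13). Uqcrfs1 measured 665, 540.0, 945 and 931 CPM in the 4 BAT libraries, 145, 129, 71.7 and 101 CPM in SFAT and 72.7, 104, 99.1 and 59.7 CPM in EFAT. The BAT values all lay above both white depots, while SFAT and EFAT overlapped. Among the members, Atp5g1 alone was called lower in BAT. It encodes the isoform of the membrane c ring of complex V that is known to be scarce in brown fat, and it measured 9.63, 7.86, 5.45 and 5.22 CPM in BAT, 17.4, 16.5, 12.9 and 11.6 CPM in SFAT and 12.7, 19.5, 19.3 and 15.7 CPM in EFAT. Every BAT value was below every value of the white depots (log2 -1.06 ± 0.25, edgeR adjusted p = 0.00058 against SFAT, and -1.26 ± 0.25, edgeR adjusted p = 5.4e-05 against EFAT). Of the other c ring genes Atp5g3 was not called (log2 -0.28 ± 0.29 and -0.03 ± 0.29), and Atp5g2 was called higher in BAT (1.44 ± 0.13, edgeR adjusted p = 1.3e-12, and 1.29 ± 0.12, edgeR adjusted p = 1.6e-11).

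Ndufa4l2 and Cox4i2, isoforms known to be induced by low oxygen, did not follow the other members. Ndufa4l2, the paralogue of Ndufa4, was not called against either white depot (log2 -0.37 ± 0.19 and -0.38 ± 0.19), and Cox4i2 differed by 0.03 ± 0.23 and 0.01 ± 0.23. Their counterparts found in all tissues were called higher in BAT than in EFAT, Ndufa4 by 2.65 ± 0.23 (edgeR adjusted p = 6.6e-13) and Cox4i1 by 2.37 ± 0.22 (adjusted p = 5.8e-12). Cox6a2, the heart and muscle isoform of a complex IV subunit, measured 11.5, 13.7, 2.29 and 2.91 CPM in BAT, 0.716, 0.199, 0.134 and 0.182 CPM in SFAT and 0.0322, 0.0342, 0.0544 and 0.0305 CPM in EFAT. Per kilobase of transcript Cox6a1, its counterpart in other tissues, stood at 1638 CPM in BAT and Cox6a2 at 11.2. Markers of skeletal muscle moved with Cox6a2: the 18 genes summed to 983 to 3438 CPM in BAT, 15.1 to 441 CPM in SFAT and 19.3 to 36.6 CPM in EFAT, and their part in it was not tested.

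On the same scale, CPM per kilobase in BAT of wild-type mice on the control diet, the highest member of each complex was Ndufa4 in complex I (1008), Sdha in complex II (902), Uqcrb in complex III (1123), Cox6a1 in complex IV (1638) and Atp5b, the catalytic beta subunit, in complex V (2805). The lowest were Ndufa4l2 (6.55) in complex I and Atp5g1 (1.49) in complex V. The length used is that of the longest protein-coding transcript. It is 4715 bases for Atp5g1 against 753 for Atp5g2 and 723 for Atp5g3, so the rank of Atp5g1 depends on that choice. Between the white depots of these mice 8 of 80 members were called higher in SFAT and 0 lower, with a median log2 of 0.27, where 15.2% of all genes tested were called, 5.66% higher and 9.57% lower. The largest of these differences were in Ndufb4 (0.60 ± 0.15, edgeR adjusted p = 0.0047), Ndufa1 (0.49 ± 0.14, edgeR adjusted p = 0.013) and Cox6c (0.48 ± 0.17, edgeR adjusted p = 0.046). Set A alone leaves 1 EFAT library against 2 in SFAT here, so that fit cannot show whether these calls depend on the set.

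In subcutaneous fat of Cth-/- mice the cystine-free diet was accompanied by higher levels of members from every complex. Of 80 members tested 57 rose and 1 fell, with a median log2 fold change of 0.67 (1.59-fold), where 25.4% of all genes tested were called, 11.8% higher and 13.6% lower, and the median over all genes was 0.03. The rises were spread over 25 of 37 genes of complex I (median 0.63), 3 of 4 of complex II (0.72), all 8 of complex III (0.85), 11 of 14 of complex IV (0.71) and 10 of 17 of complex V (0.64). In relation to BAT of wild-type mice on the control diet, the median member stood at 17.5% of the brown level in SFAT of Cth-/- CTRL and at 27.6% in Cth-/- CysF. By complex the latter value was 27.8% for complex I, 25.5% for II, 25.1% for III, 26.2% for IV and 34.5% for V.

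With the library set as a term 58 members rose and 1 fell (median 0.59), with set A alone 62 and 1 (0.74), and with set B alone, where the CysF group is 1 library, 31 and 2 (0.47).

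**Figure D2:**
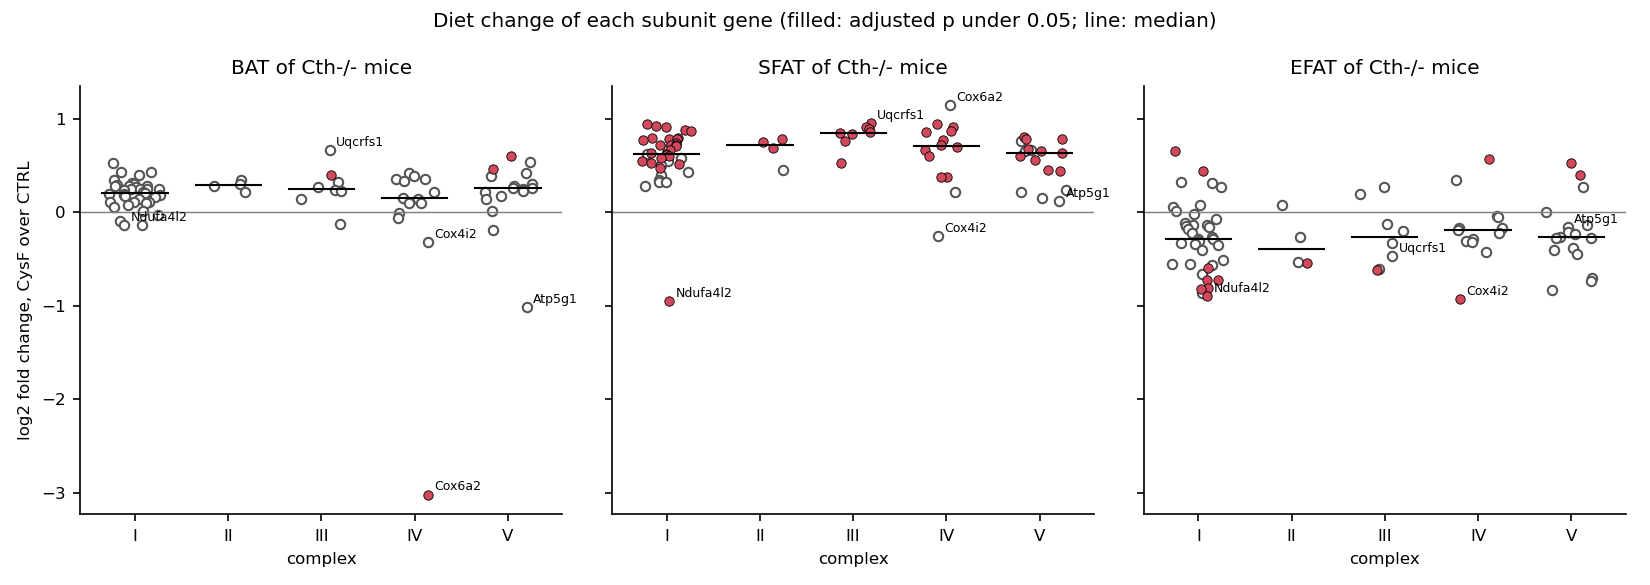
Log2 fold change of each tested member on the cystine-free against the control diet in Cth-/- mice, one panel per depot, with members grouped by complex on the x axis; filled points passed the test (edgeR adjusted p under 0.05) and the short line is the median of the complex. In SFAT most points of every complex are filled and above 0, in BAT few are filled, and in EFAT filled points lie on both sides of 0.

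Complex I contributed 25 of the rises. Its largest were in Ndufa5 (ENSMUSG00000023089.12, chromosome 6 from 24518666 to 24528013 on the minus strand in GRCm38), an accessory subunit of the matrix arm, and Ndufa6, another accessory subunit. Ndufa5 measured 28.1, 22.7, 29.1 and 25.7 CPM in the Cth-/- CTRL libraries and 49.3, 55.8, 34.1 and 62.7 CPM in Cth-/- CysF (log2 fold change 0.95 ± 0.15, edgeR adjusted p = 0.00043). The groups did not overlap, and replicate 18 held the lowest value of the CysF group. Ndufa6 went from 38.5, 35.8, 39.5 and 41.6 CPM to 76.2, 81.0, 56.2 and 78.7 CPM (0.92 ± 0.13, edgeR adjusted p = 0.00013), again without overlap. Among the nuclear core subunits of complex I, which form the arm that takes electrons from NADH to ubiquinone, these rose: Ndufs1 by 0.72, Ndufs3 by 0.66, Ndufs7 by 0.79, Ndufs8 by 0.72, Ndufv1 by 0.89 and Ndufv2 by 0.72 on the log2 scale. The call of Ndufs3 was lost in 8 of 16 alternative fits, those of the other 5 at most in set B alone. Ndufs1, which holds iron-sulfur clusters, measured 133, 121, 145 and 134 CPM on the control diet and 249, 257, 164 and 204 CPM on the cystine-free diet (edgeR adjusted p = 0.0039), without overlap.

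Ndufa4l2 was the single member that fell. It measured 6.38, 3.75, 6.27 and 4.82 CPM in Cth-/- CTRL and 2.60, 2.28, 2.99 and 3.08 CPM in Cth-/- CysF (log2 fold change -0.95 ± 0.21, edgeR adjusted p = 0.0049). All 4 libraries on the cystine-free diet lay below all 4 controls, and the call held in each of the 16 alternative fits. Its paralogue Ndufa4 rose in the same libraries, from 102 ± 6.09 CPM to 155 ± 34.8 CPM (mean ± SD, n = 4), with a log2 fold change of 0.61 ± 0.19 (edgeR adjusted p = 0.03). Cox4i2, the other isoform linked to low oxygen, was 1.94, 1.16, 1.75 and 1.38 CPM and 1.44, 1.19, 1.19 and 1.40 CPM, with overlapping groups and no call (-0.25 ± 0.24, edgeR adjusted p = 0.49). Pericytes and smooth muscle are known to express both isoforms. The summed level of the 6 markers of these cells was 418 to 564 CPM on the control and 392 to 592 CPM on the cystine-free diet, with 0 called higher and 1 lower, and the part of these cells was not tested.

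In complex II the flavoprotein Sdha (ENSMUSG00000021577.13, chromosome 13 from 74322254 to 74350280 on the minus strand) rose from 428, 401, 456 and 458 CPM to 829, 838, 566 and 751 CPM (log2 fold change 0.79 ± 0.15, edgeR adjusted p = 0.0014). The iron-sulfur subunit Sdhb went from 99.4, 97.8, 100.4 and 100.5 CPM to 185, 193, 126 and 134 CPM (0.69 ± 0.16, edgeR adjusted p = 0.0047). Neither overlapped between the groups. The membrane anchors differed in their calls: Sdhd rose by 0.75 ± 0.21 (edgeR adjusted p = 0.014) and Sdhc, at 0.46 ± 0.17, missed the threshold (adjusted p = 0.056). The call of Sdhd was lost without replicate 16, without replicate 17 and in set B alone.

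Complex III showed the highest median. Uqcrfs1 (ENSMUSG00000038462.3, chromosome 13 from 30540308 to 30545362 on the minus strand) rose from 97.4, 114, 96.2 and 116 CPM to 259, 249, 168 and 139 CPM (log2 fold change 0.95 ± 0.26, edgeR adjusted p = 0.014). Replicates 16 and 17 were high, and replicates 18 and 20 lay closer to the controls without meeting them. The core protein Uqcrc2 showed another order: it went from 159.6, 149, 173 and 158 CPM to 335, 341, 199 and 318 CPM (0.91 ± 0.16, edgeR adjusted p = 0.00099), with replicate 18 alone close to the controls. Every other Uqcr gene also passed, with log2 fold changes from 0.52 to 0.95 over the complex.

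In complex IV the largest rises were in Cox7b, from 89.7, 77.6, 88.9 and 88.7 CPM to 181, 195, 116 and 165 CPM (log2 fold change 0.94 ± 0.15, edgeR adjusted p = 0.00047), and Cox5a, from 51.6, 65.1, 50.6 and 67.6 CPM to 145, 140.2, 78.4 and 76.1 CPM (0.91 ± 0.27, edgeR adjusted p = 0.02). Neither gene overlapped between the groups, although Cox5a lost its call without any 1 of replicates 12, 14, 16 and 17 and in set B alone. The subunits found in all tissues rose together: Cox4i1 by 0.87, Cox6a1 by 0.60, Cox6b1 by 0.67, Cox7a2 by 0.70 and Cox8a by 0.38 on the log2 scale. Cox8a turned to -0.08 in set B alone. Cox6b2, known from testis, was 0.22 ± 0.34 (edgeR adjusted p = 0.69). Cox6a2 was 0.695, 0.266, 0.0762 and 1.15 CPM on the control diet and 0.912, 0.152, 0.0254 and 3.94 CPM on the cystine-free diet, overlapping and not called (1.14 ± 1.01, edgeR adjusted p = 0.44). Its highest value was in replicate 20, the library with the highest summed level of skeletal muscle markers (1594 CPM). Cox7a2l rose by 0.38 ± 0.10 (adjusted p = 0.0096).

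In complex V the calls covered head, stalk and membrane parts of the enzyme unevenly. Of the 5 subunits of the catalytic F1 head 4 rose, among them Atp5b, from 969.7, 875, 1039 and 939.7 CPM to 1941, 1921, 1272 and 1407 CPM (0.78 ± 0.19, edgeR adjusted p = 0.0083), Atp5a1 by 0.78, Atp5c1 by 0.45 and Atp5d by 0.65. The small epsilon subunit Atp5e was not called (0.67 ± 0.39, edgeR adjusted p = 0.23). Atp5h, a subunit of the peripheral stalk, rose from 98.4, 83.0, 100.1 and 94.6 CPM to 161, 168, 129.8 and 192 CPM (0.80 ± 0.11, edgeR adjusted p = 0.00017), with no overlap. In the c ring Atp5g2 rose by 0.45 ± 0.09 (edgeR adjusted p = 0.0026), while Atp5g3 was 0.22 ± 0.29 (adjusted p = 0.64) and Atp5g1 was 0.12 ± 0.18 (adjusted p = 0.66). Differences between the parts of the enzyme were not tested.

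**Figure D3:**
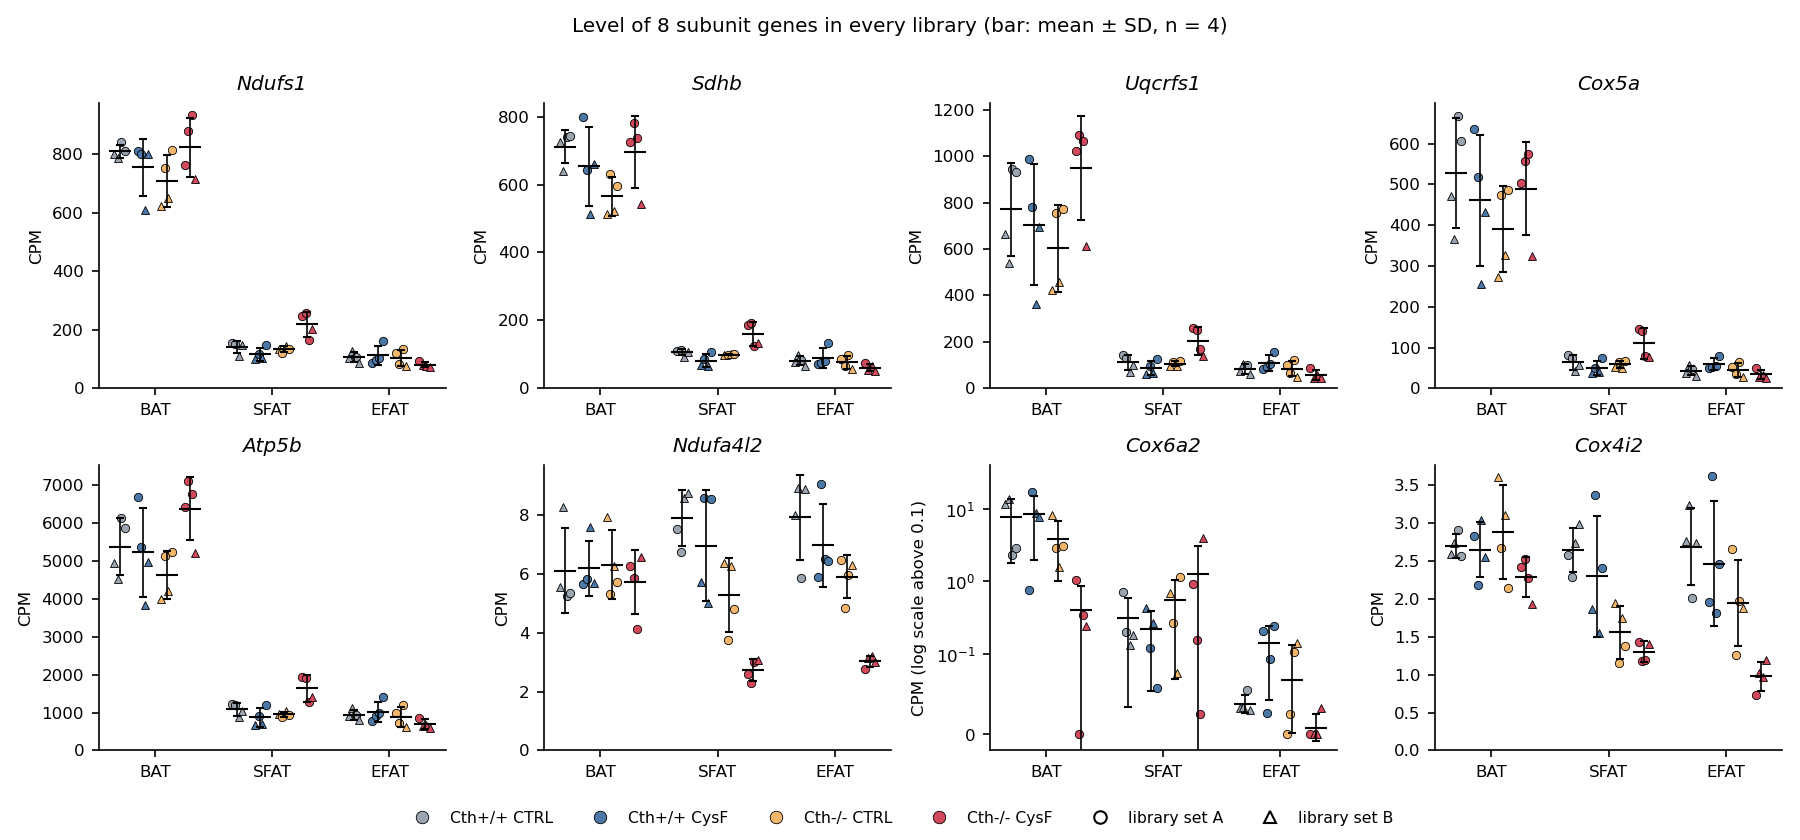
CPM of 8 members in each of the 48 libraries, with the depots on the x axis and the 4 groups in colour, with circles for set A, triangles for set B and bars for the mean ± SD (n = 4); the panel of Cox6a2 has an axis that is linear near 0 and logarithmic above. Ndufs1, Sdhb, Uqcrfs1, Cox5a and Atp5b are highest in BAT and, among SFAT groups, in Cth-/- CysF, while Ndufa4l2 has its lowest SFAT values there.

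Markers of other cell types moved in the same libraries. Of 9 brown adipocyte markers tested 7 rose, and the list summed to 171 to 343 CPM in CTRL and 343 to 1546 CPM in CysF. Ucp1 stood at 29.9 to 139 and 110.2 to 1087 CPM. Fibroblast and preadipocyte markers fell for 9 of 10 genes, with sums of 4405 to 11303 CPM in CTRL and 1258 to 1601 CPM in CysF. Macrophage markers fell for 9 of 13, with sums of 983 to 2996 CPM in CTRL and 574 to 975 CPM in CysF, and B cell markers for 8 of 8, with sums of 129.5 to 529 CPM in CTRL and 33.8 to 87.1 CPM in CysF. The adipocyte markers summed to 14909 to 19820.4 CPM in CTRL and 19102 to 21472 CPM in CysF, with 2 of 8 called higher. The mitochondrially encoded share of counts was 7.06 to 11.4% on the control and 10.6 to 31.3% on the cystine-free diet, with replicate 20 highest. The part of each of these in the rise of the members was not tested.

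In wild-type mice the same diet was followed by no called change of the members in SFAT. None of 80 passed with edgeR, where 0.0664% of all genes tested were called, 0.0544% higher and 0.0121% lower, and 0 and 32 were higher and lower at an unadjusted p under 0.05. The point estimates were nearly all below 0 (79 of 80, median -0.36). DESeq2 called 1 member, set B alone 18 and the fit without replicate 11 called 5, all lower. Uqcrfs1 measured 145, 129, 71.7 and 101 CPM on the control diet and 61.8, 94.1, 64.0 and 128 CPM on the cystine-free diet in these mice, and replicate 11 held the highest of the latter.

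Between the genotypes on the control diet, none of 80 was called with edgeR, where 0.103% of all genes tested were called, 0.0423% higher and 0.0604% lower. At an unadjusted p under 0.05 1 was higher and 10 lower, DESeq2 and the set term called 0, and set A alone called 1 higher and 5 lower. On the cystine-free diet 63 of 80 were higher and 2 lower in Cth-/- than in Cth+/+ mice (median 0.78), where 37.5% of all genes tested were called, 18.1% higher and 19.4% lower. The largest differences were in Uqcrfs1 (1.24 ± 0.26, edgeR adjusted p = 0.0017), Ndufv1 (1.20 ± 0.22, edgeR adjusted p = 0.00054) and Cox5a (1.14 ± 0.27, edgeR adjusted p = 0.0035). The members called lower were Ndufa4l2 (-1.34 ± 0.21, edgeR adjusted p = 0.00021) and Cox4i2 (-0.81 ± 0.24, edgeR adjusted p = 0.016). Cox4i2 held 1.86, 3.37, 1.55 and 2.42 CPM in wild-type and 1.44, 1.19, 1.19 and 1.40 CPM in Cth-/- mice on that diet, with no overlap.

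The interaction, which tests whether the diet effect differed between the genotypes, was positive and called for 65 of 80 members and negative for 0 (median 1.05), where 21.8% of all genes tested were called, 9.39% higher and 12.4% lower. It took in 30 of 37 genes of complex I, 4 of 4 of complex II, 8 of 8 of complex III, 11 of 14 of complex IV and 12 of 17 of complex V. The largest terms were in Cox6c (1.40 ± 0.21, edgeR adjusted p = 0.00057), Cox7b (1.35 ± 0.21, edgeR adjusted p = 0.00067) and the small complex III subunit Uqcr10 (1.35 ± 0.27, edgeR adjusted p = 0.0034). For Cox7b the diet effect was -0.41 ± 0.15 in Cth+/+ and 0.94 ± 0.15 in Cth-/- mice, and for Cox6c -0.54 ± 0.15 and 0.86 ± 0.15. In set A alone 44 terms were called positive and 1 negative.

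Genes that build the complexes were followed as a list of 44 assembly factors. In SFAT of Cth-/- mice 14 of 44 rose on the cystine-free diet and 0 fell (median 0.34), against 11.8% and 13.6% of all genes tested. In BAT 10 rose and 0 fell (median 0.22), against 7.81% and 10.2% of all genes, and in EFAT 0 rose and 9 fell (median -0.24), against 14.5% and 14.3%. Among the rises in SFAT were Ndufaf4 of complex I (0.82 ± 0.17, edgeR adjusted p = 0.0033), Lyrm7, which helps to insert the Rieske protein into complex III (0.78 ± 0.21, adjusted p = 0.014), and Cox10, which makes the heme of complex IV (0.71 ± 0.18, adjusted p = 0.0097). In BAT Sco2, a copper carrier for complex IV, rose by 1.00 ± 0.17 (adjusted p = 0.0012). In EFAT Acad9, which assembles complex I, fell by 1.04 ± 0.17 (adjusted p = 0.00094).

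Of 5 related genes outside the naming rule 4 rose in SFAT of Cth-/- mice: Cycs, the somatic cytochrome c, by 1.02 ± 0.21 (edgeR adjusted p = 0.0028), Ndufab1, the mitochondrial acyl carrier protein, by 0.66 ± 0.16, and the brown fat isoforms Cox7a1 and Cox8b by 2.03 ± 0.52 and 1.24 ± 0.21. Cyc1, the cytochrome of complex III, was 0.77 ± 0.28 (adjusted p = 0.051). Of the 13 subunits encoded in mitochondrial DNA 4 rose and 0 fell in SFAT (median 1.25), against 11.8% and 13.6% of all genes tested. The mitochondrially encoded share of counts in SFAT of Cth-/- CysF was 31.3% in replicate 20, a set B library, and 10.6 to 11.5% in the others. In BAT 0 of the 13 were called (median -0.38) and in EFAT 0 (median 0.83), against 18% and 28.9% of all genes tested. The 7 members that carry iron-sulfur clusters, built from the sulfur of cysteine, rose in SFAT (median 0.72), where 57 of all 80 members tested (median 0.67) and 11.8% of all genes rose. In BAT 0 and in EFAT 0 of the 7 were called in the same comparison, with medians of 0.29 and -0.26.

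RefSeq promoter windows of the mouse build GRCm38.p6, which run from upstream of a gene's start to shortly after it, were matched for 64 of the 82 members and searched on both strands for the binding words of 4 regulators known from mitochondrial genes. The NRF1 word GCGCANGCG was found in 20 of 64 members (31.2%, against 7.03% of all promoters), the estrogen-related receptor (ERR) word TNAAGGTCA in 3 of 64 members (4.69%, against 1.43% of all promoters), the GABP word CCGGAAGT in 5 of 64 members (7.81%, against 4.31% of all promoters) and the YY1 word AANATGGCG in 10 of 64 members (15.6%, against 2.76% of all promoters). Any of the 4 occurred in 32 of 64 members, against 14.0% of all promoters. Members with and without any word had medians of 0.66 and 0.67 for the diet in SFAT of Cth-/- mice. A match describes letters only, and all promoters serve here as the level to read it against. For each complex the member with the largest rise in SFAT among those holding a word is shown, so that the words can be seen in place. The sequences run 5′ to 3′ on the minus strand, which is the coding strand of each gene, and capitals mark the word or its reverse complement. N stands for any base, and in Cox6a1 the 2 strands match the NRF1 word at overlapping places.

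Ndufa5, complex I, NRF1 word, chr6:24527641-24527940: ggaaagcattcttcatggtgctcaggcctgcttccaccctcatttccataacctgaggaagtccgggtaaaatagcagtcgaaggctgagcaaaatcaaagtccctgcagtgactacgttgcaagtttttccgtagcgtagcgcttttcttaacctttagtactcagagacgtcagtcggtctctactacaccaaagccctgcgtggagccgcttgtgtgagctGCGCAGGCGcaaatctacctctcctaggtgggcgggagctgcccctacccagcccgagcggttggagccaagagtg
Sdha, complex II, NRF1 word, chr13:74350191-74350490: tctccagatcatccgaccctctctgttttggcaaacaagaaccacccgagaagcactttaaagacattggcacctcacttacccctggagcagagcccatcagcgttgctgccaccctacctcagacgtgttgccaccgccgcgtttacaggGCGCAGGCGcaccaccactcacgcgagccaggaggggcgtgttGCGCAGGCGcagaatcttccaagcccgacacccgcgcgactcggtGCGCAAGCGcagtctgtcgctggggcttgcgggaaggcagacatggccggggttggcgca
Uqcrh, complex III, GABP word, chr4:116075021-116075320: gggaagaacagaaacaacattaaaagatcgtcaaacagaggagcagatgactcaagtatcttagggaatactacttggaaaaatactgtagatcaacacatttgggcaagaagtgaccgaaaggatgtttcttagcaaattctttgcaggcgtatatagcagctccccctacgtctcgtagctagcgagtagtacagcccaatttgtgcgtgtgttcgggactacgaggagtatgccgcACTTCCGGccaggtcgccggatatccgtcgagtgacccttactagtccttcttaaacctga
Cox6a1, complex IV, NRF1 word, chr5:115348909-115349208: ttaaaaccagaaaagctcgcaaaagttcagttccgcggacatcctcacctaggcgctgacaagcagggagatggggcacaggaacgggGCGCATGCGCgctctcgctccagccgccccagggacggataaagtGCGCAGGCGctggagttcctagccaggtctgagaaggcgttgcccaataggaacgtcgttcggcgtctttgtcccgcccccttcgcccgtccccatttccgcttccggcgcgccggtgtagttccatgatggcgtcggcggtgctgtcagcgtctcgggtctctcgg
Atp5h, complex V, NRF1 and GABP words, chr11:115419870-115420169: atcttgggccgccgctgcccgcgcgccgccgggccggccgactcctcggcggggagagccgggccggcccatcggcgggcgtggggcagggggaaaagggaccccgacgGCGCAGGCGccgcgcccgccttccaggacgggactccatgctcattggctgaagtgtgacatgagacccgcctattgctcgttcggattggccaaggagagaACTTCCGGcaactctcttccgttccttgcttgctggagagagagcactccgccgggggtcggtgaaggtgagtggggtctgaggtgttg

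The genes of these windows rose in SFAT of Cth-/- mice by log2 0.95 ± 0.15 (Ndufa5), 0.79 ± 0.15 (Sdha), 0.84 ± 0.13 (Uqcrh), 0.60 ± 0.12 (Cox6a1) and 0.80 ± 0.11 (Atp5h). All words in them lie before the RefSeq start. That start lies within 43 bases of the GENCODE start for 4 of the genes. For Ndufa5, with 2 RefSeq entries, it lies 323 bases into the GENCODE gene, so the whole window printed is inside that gene. For Sdha and Atp5h it lies 40 and 43 bases into the GENCODE gene. The NRF1 word of Sdha that begins 10 bases before the RefSeq start is therefore inside the GENCODE gene. So is the GABP word of Atp5h, which begins 39 bases before the RefSeq start.

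In brown fat of Cth-/- mice few members changed on the cystine-free diet: 3 of 80 rose and 1 fell (median 0.23), where 18% of all genes tested were called, 7.81% higher and 10.2% lower, and 17 and 2 members passed an unadjusted p under 0.05. The rises were in Uqcrc2, from 1082, 1112, 938 and 1138 CPM to 1403, 1539, 1429 and 1229 CPM (log2 fold change 0.39 ± 0.09, edgeR adjusted p = 0.0095), Atp5sl, from 30.0, 36.9, 23.6 and 35.0 CPM to 44.6, 45.4, 51.3 and 48.0 CPM (0.60 ± 0.12, edgeR adjusted p = 0.0034), and Atp5b, from 3996, 5136, 4202 and 5229 CPM to 6413, 7121, 6763 and 5218 CPM (0.46 ± 0.16, edgeR adjusted p = 0.049). Uqcrc2 and Atp5sl did not overlap between the groups, whereas replicate 20 of Atp5b, a set B library, lay among the controls and the call was lost in 10 of 16 alternative fits. Replicate 20 was also the lowest library on the cystine-free diet for Uqcrfs1, at 614 CPM against 1024, 1091 and 1064 CPM in the others, and Uqcrfs1 was not called (0.66 ± 0.28, edgeR adjusted p = 0.11). With the set as a term 10 members rose and 0 fell, with set A alone 5 and 0, and DESeq2 gave 11 and 2. Leaving out single libraries gave 2 to 8 called members.

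Cox6a2, the heart and muscle isoform, fell. It measured 8.04, 2.82, 1.59 and 3.00 CPM in Cth-/- CTRL and 1.03, 0, 0.341 and 0.241 CPM in Cth-/- CysF (log2 fold change -3.02 ± 0.95, edgeR adjusted p = 0.038), without overlap. It lost its call without replicate 12, 17, 18 or 20, with the set as a term and in set A alone. Set B alone leaves 1 BAT library of Cth-/- CysF. The sums of the skeletal muscle markers were 983 to 3438 CPM in Cth+/+ CTRL, 369 to 7653 in Cth+/+ CysF, 193 to 1829 in Cth-/- CTRL and 9.90 to 297 in Cth-/- CysF. Of 18 such markers 11 fell with the diet in Cth-/- mice, and 18 were lower in Cth-/- than in Cth+/+ mice on the cystine-free diet. Atp5g1 measured 4.27, 4.42, 3.18 and 4.99 CPM in Cth-/- CTRL and 2.29, 1.80, 2.33 and 1.85 CPM in Cth-/- CysF. Its groups did not overlap, and it was not called (-1.01 ± 0.35, edgeR adjusted p = 0.053). The part of muscle RNA in the levels of Cox6a2 and Atp5g1 was not tested.

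The other comparisons in BAT called few members. In wild-type mice the diet gave 0 calls among 80 with edgeR, where 0.0826% of all genes tested were called, 0.0551% higher and 0.0275% lower. At an unadjusted p under 0.05 0 were higher and 2 lower, and DESeq2 called 0. The genotype on the control diet gave 0 with edgeR, where 2.1% of all genes tested were called, 1.29% higher and 0.805% lower. At an unadjusted p under 0.05 33 members were lower and 1 higher in Cth-/- (median -0.27). There DESeq2 called 5 lower, the set term 10 and set A alone 4. On the cystine-free diet 1 member was higher and 2 lower in Cth-/-, where 31.6% of all genes tested were called, 14.5% higher and 17.1% lower. They were Atp5sl (0.88 ± 0.12, edgeR adjusted p = 8.8e-05), Atp5g1 (-1.97 ± 0.34, edgeR adjusted p = 0.00057) and Cox6a2 (-4.18 ± 0.94, edgeR adjusted p = 0.0033). The count of 3 became 6 with the set as a term and 5 with DESeq2. Set B alone holds 1 Cth-/- CysF library in BAT, so that fit cannot decide the calls. Cox6a2 overlapped through replicate 7 of the wild-type group, at 0.755 CPM. The interaction was called for Atp5sl alone (0.61 ± 0.17, edgeR adjusted p = 0.046), where 6.42% of all genes tested were called, 2.1% higher and 4.32% lower, and lost that call in 16 of 23 alternative fits. The set term and DESeq2 each gave 4 positive interaction calls, and set A alone 0.

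The mean log2 CPM of complex I was 7.43 ± 0.10 in Cth-/- CTRL and 7.61 ± 0.18 in Cth-/- CysF (mean ± SD, n = 4), and that of complex III 8.87 ± 0.13 and 9.13 ± 0.20. For complex IV the difference was -0.10 with Cox6a2 and 0.16 without it. The median member stood at 81.2% of the wild-type control level in Cth-/- CTRL and at 92.9% in Cth-/- CysF.

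In visceral fat of Cth-/- mice 5 of 79 members rose and 9 fell on the cystine-free diet (median -0.26), where 28.9% of all genes tested were called, 14.5% higher and 14.3% lower. Neither share of members exceeded that of all genes. The count was 5 with the set as a term (2 higher and 3 lower), 0 in set A alone, where 1 library is left on the cystine-free diet, and 5 to 27 when single libraries were left out. Without replicate 16 4 rose and 23 fell, without replicate 15 5 and 19, and without replicate 12 3 and 3. Of the Cth-/- libraries in EFAT replicates 15, 17, 18 and 20 belong to set B and 12, 13, 14 and 16 to set A, so set and diet largely coincide.

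Among the falls in EFAT were the isoforms linked to low oxygen. Ndufa4l2 (ENSMUSG00000040280.9, chromosome 10 from 127514967 to 127517154 on the plus strand) went from 6.48, 4.85, 5.98 and 6.31 CPM to 2.76, 3.14, 3.21 and 3.02 CPM (log2 fold change -0.90 ± 0.17, edgeR adjusted p = 0.0018). Cox4i2 went from 2.66, 1.26, 1.98 and 1.88 CPM to 0.734, 1.02, 0.970 and 1.19 CPM (-0.93 ± 0.27, edgeR adjusted p = 0.022). Neither overlapped between the groups. With the set as a term both kept the call (Ndufa4l2 -1.05, Cox4i2 -1.12). Set A alone and set B alone leave 1 Cth-/- library on one of the diets, and neither gene was called in these fits, with log2 fold changes of -1.07 and -0.99 for Ndufa4l2 and -1.43 and -0.80 for Cox4i2. Cox4i2 also lost the call without replicate 12 (-0.74). The summed smooth muscle and pericyte markers were 537 to 611 and 565 to 769.6 CPM, with 2 called higher and 0 lower. Ndufs4, an accessory subunit of complex I, was 39.3, 26.2, 45.8 and 21.6 CPM on the control and 26.6, 15.9, 16.0 and 13.8 CPM on the cystine-free diet (-0.82 ± 0.26, edgeR adjusted p = 0.031). Its groups overlapped, as replicates 13 and 15 were low among the controls and replicate 16 high on the cystine-free diet. Ndufb3 (-0.81 ± 0.18, edgeR adjusted p = 0.0052), Ndufb8 (-0.72 ± 0.20, edgeR adjusted p = 0.016), Uqcr11 (-0.62 ± 0.22, edgeR adjusted p = 0.048) and Sdhc (-0.54 ± 0.19, edgeR adjusted p = 0.045) fell too, and Ndufa11 and Ndufb7 completed the 9. Ndufs4, Uqcr11 and Sdhc each lost the call in 9 of the 16 alternative fits, the set as a term among them.

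The rises in EFAT lay outside the core subunits. Cox7a2l, the supercomplex assembly factor, went from 55.0, 68.7, 59.7 and 67.3 CPM to 86.8, 82.7, 88.8 and 97.3 CPM (0.57 ± 0.09, edgeR adjusted p = 0.00051), every CysF library lying above every control. Atp5s, coupling factor B, rose from 6.13, 5.08, 4.96 and 5.63 CPM to 6.73, 6.82, 6.39 and 7.60 CPM (0.40 ± 0.12, edgeR adjusted p = 0.022), Atp5sl by 0.53 ± 0.15 (adjusted p = 0.02), Ndufa6 by 0.44 ± 0.11 (adjusted p = 0.01) and Ndufa12, with overlapping groups, by 0.65 ± 0.22 (adjusted p = 0.035). Atp5sl rose in the Cth-/- mice of all 3 depots, by 0.56 ± 0.12 in SFAT (edgeR adjusted p = 0.003). In the same comparison of EFAT fibroblast and preadipocyte markers fell for 7 of 10 genes, with sums of 2782 to 3269 CPM in CTRL and 1866 to 2071 CPM in CysF, and macrophage markers for 9 of 13, with sums of 897 to 1016 CPM in CTRL and 464 to 659.9 CPM in CysF. The adipocyte markers summed to 18141 to 26526 CPM in CTRL and 14718 to 17135 CPM in CysF. Their part in the values of the members was not tested.

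On the cystine-free diet 38 of 79 members were lower and 3 higher in EFAT of Cth-/- than of Cth+/+ mice (median -0.49), where 39.7% of all genes tested were called, 20% higher and 19.6% lower. The lower ones were 17 genes of complex I, 2 of II, 5 of III, 7 of IV and 7 of V. Ndufb6 (-1.24 ± 0.32, edgeR adjusted p = 0.0075), Ndufs4 (-1.22 ± 0.27, edgeR adjusted p = 0.0027) and Ndufa4l2 (-1.14 ± 0.17, edgeR adjusted p = 0.00025) had the largest differences, and Cox7a2l (0.54 ± 0.09, edgeR adjusted p = 0.00044), Atp5s (0.77 ± 0.12, edgeR adjusted p = 0.00034) and Atp5sl (0.54 ± 0.16, edgeR adjusted p = 0.014) were the ones higher. All 4 Cth+/+ CysF libraries are of set A and 3 of the 4 Cth-/- CysF libraries are of set B. With the set as a term 5 members were called lower and 2 higher (median -0.29), and with set A alone, where 1 Cth-/- CysF library is left, 0 were called (median -0.31). Set and genotype largely coincide here and cannot be told apart for the calls that the set term removes. Replicate 11 of the wild-type group was high for many members, Ndufs4 for one (34.0, 38.8, 38.5 and 64.3 CPM). Without it 19 members were called lower and 5 higher.

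**Figure D4:**
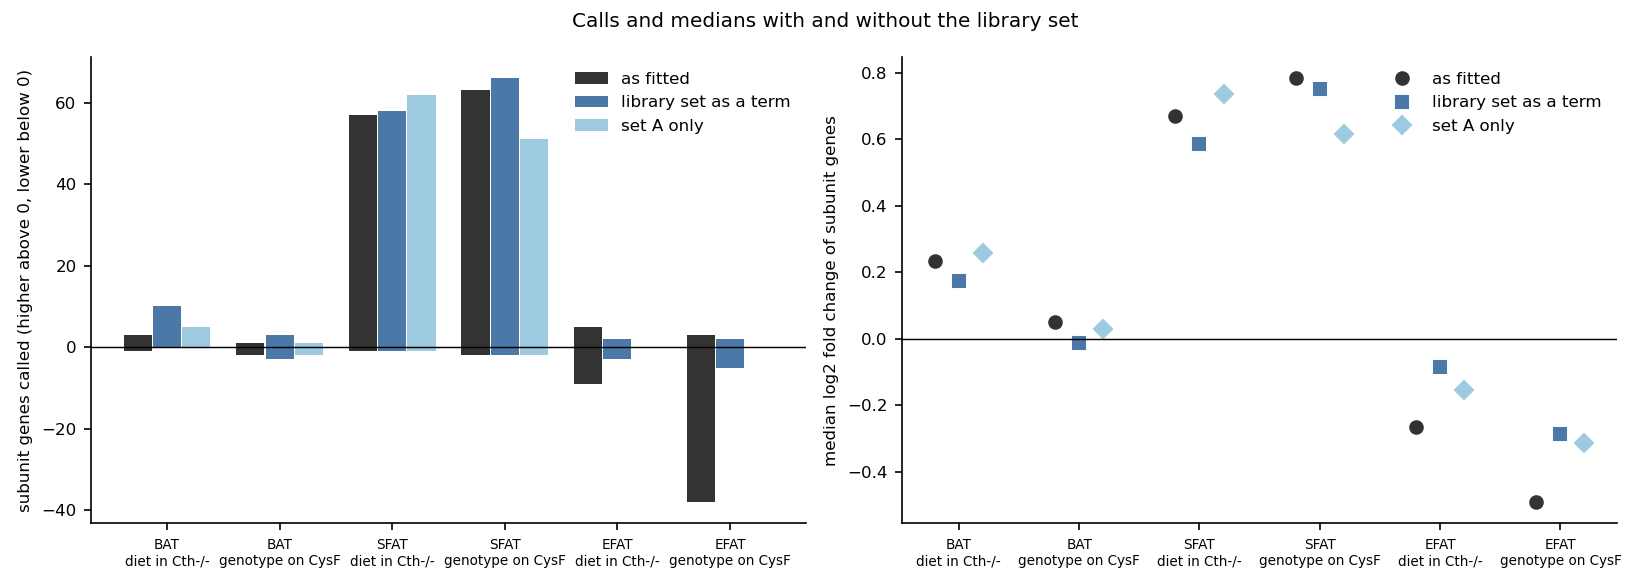
Number of members called (left panel, higher above 0 and lower below) and median log2 fold change of the members (right panel) for the diet in Cth-/- mice and the genotype on the cystine-free diet, by depot, as fitted, with the library set as a term and in set A alone. In SFAT the counts stay above 40 in each fit, while in EFAT the 41 calls for the genotype become 7 with the set term and 0 in set A alone. That last fit holds 1 Cth-/- CysF library in EFAT against 3 in SFAT, and its EFAT median stays below 0.

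In wild-type mice no member of EFAT was called for the diet by edgeR's test: 0 of 79 were called, where 0% of all genes tested were called, 0% higher and 0% lower, with 1 higher and 0 lower at an unadjusted p under 0.05 and 0 called by DESeq2. The genotype on the control diet gave 0, where 0.0464% of all genes tested were called, 0.0174% higher and 0.029% lower, with 0 higher and 1 lower at an unadjusted p under 0.05 and 0 called by DESeq2. The interaction was called for Atp5s (0.56 ± 0.17, edgeR adjusted p = 0.047), Cox7a2l (0.54 ± 0.12, edgeR adjusted p = 0.018), Ndufb8 (-0.97 ± 0.28, edgeR adjusted p = 0.042) and Ndufb3 (-0.85 ± 0.25, edgeR adjusted p = 0.047), where 10.4% of all genes tested were called, 5.04% higher and 5.35% lower. The interaction calls were 0 with the set as a term.

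The diet response of Cth-/- mice was compared between depots in a fit of all 48 libraries. For 51 of 80 members it was lower in EFAT than in SFAT and for 0 higher (median difference -0.98), where 4.38% of all genes tested were called, 1.04% higher and 3.35% lower. These were 24 genes of complex I, 4 of II, 7 of III, 7 of IV and 9 of V. The largest differences were in Atp5k, a membrane subunit of complex V (-1.54 ± 0.42, edgeR adjusted p = 0.03), Uqcrq, a small subunit of complex III (-1.52 ± 0.42, edgeR adjusted p = 0.028), and Uqcrfs1 (-1.47 ± 0.43, edgeR adjusted p = 0.043). With the set as a term 33 members were called (median -0.77), and in set A alone, with 3 libraries on the cystine-free diet in SFAT and 1 in EFAT, 0 (median -0.92). Without replicate 17 the count was 7, without replicate 14 it was 13, without replicate 12 15 and without replicate 20 32, each number being left out in all depots.

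Between SFAT and BAT few members were called. The response was higher in SFAT for 4 of 80 members and lower for 0 (median difference 0.42), where 2.16% of all genes tested were called, 1.34% higher and 0.823% lower. It was led by Cox7b (0.83 ± 0.23, edgeR adjusted p = 0.042), Ndufa5 (0.70 ± 0.19, edgeR adjusted p = 0.041) and Atp5h (0.65 ± 0.16, edgeR adjusted p = 0.027). Leaving out single replicate numbers, each in all depots, gave 0 to 6 calls, and the set term gave 9. Between EFAT and BAT 13 members were lower and 1 higher in EFAT (median -0.52), where 16.2% of all genes tested were called, 7.29% higher and 8.94% lower. The lower ones included Atp5k (-1.19 ± 0.42, edgeR adjusted p = 0.048), Ndufs4 (-1.06 ± 0.35, edgeR adjusted p = 0.036) and Ndufb2 (-1.06 ± 0.36, edgeR adjusted p = 0.041), and Atp5s was higher (0.53 ± 0.15, edgeR adjusted p = 0.015). With the set as a term 4 members were called. With the replicate number as a block more members were called in each of the depot comparisons of the diet response, as given in the last section. The comparisons share the libraries of a depot, so their counts are not independent of each other.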

How the data were processed

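The submitters' processing notes name FastQC, STAR, Picard and RSEM and the build mm10. Tool versions and the release of the gene models: not given in the sources used here. The authors deposited RSEM expected counts for each gene of the 48 libraries, not scaled, in which 5.31 to 8.16% of a library's values were not whole, and these were rounded for the tests. A library held between 16245832 and 46031118 counts, which limits precision to counting error for genes of few reads.

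All genes of a depot were tested over its 16 libraries in 4 groups with edgeR 4.0.16 (limma 3.58.1, R 4.3.3) by the quasi-likelihood F-test, after filterByExpr (minimum count 10, total of at least 15) and scaling by TMM. Differences between depots came from a fit of all 48 libraries in 12 groups. P-values are two-sided and Benjamini-Hochberg adjusted over all genes tested, with a threshold of 0.05, and ± beside a log2 fold change is its standard error. A gene is said to rise or fall where it passed this threshold. CPM were computed on 1 TMM scale over the 48 libraries. A complex level is the mean log2 CPM (prior count 2) over the 80 members that average 1 CPM or more. Lengths are those of the longest protein-coding transcript of a gene in GENCODE M21, and coordinates are from the same source (GRCm38). Tests recovered seeded changes in counts simulated from the fitted dispersions, without a library set or differences in tissue make-up. That run checks the code only and does not bear on the calls. Tables and plots were made with Python 3.11.15, pandas 2.3.3 and matplotlib 3.10.9.

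The members and gene lists were chosen with earlier results of these data known. Named members are those of the core, iron-sulfur, F1, c ring and isoform lists and, per comparison, the called members with the largest changes that average 5 CPM or more and those called against the majority. Not every listed gene is reported here. Cox6a2 and Cox4i2 in BAT, SFAT and EFAT fall under the isoform list, and Uqcrfs1 in BAT, the assembly factors, the printed promoters and Uqcrh, Ndufa11 and Ndufb7 were chosen after their values were seen. Alternatives were RLE scaling, scaling without mitochondrially encoded genes, no low-count filter, DESeq2 1.42.0, only the groups compared, the library set as a term, set A alone, single replicates left out and, between depots, a replicate block. Set B alone, and set A alone between depots, were added after the data were seen. Same-numbered libraries of different depots were checked for shared deviations: 26 of 48 pairs correlated above 0.1 (median 0.107), so the numbers were not taken to pair them.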

Additional observations from a re-analysis of the deposited data

Results flagged for a closer look

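In 5 of 60 tested combinations of complex and group 1 library stood apart from the other 3, and chance alone gives about 1 in 20 for independent tests. The combinations are not independent, as the complexes of a group often share their lowest or highest library. The count therefore cannot be set against that rate. In EFAT of the Cth-/- CysF group replicate 16 was high, with a mean log2 CPM of 5.15 for complex I against 4.78, 4.79 and 4.81 in the others, and 6.08 for complex III against 5.71, 5.72 and 5.72. It is the group's set A library. In EFAT of wild-type mice on the cystine-free diet replicate 11 was high, with 5.36 for complex IV against 4.90 to 4.94, and 6.54 for complex V against 6.00 to 6.08. In BAT of the Cth-/- CysF group replicate 20 was low for complex III, with 8.84 against 9.21 to 9.27, and it is the group's set B library.

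Effects that differed between groups by a test of the difference itself were the genotype by diet interactions, called for 1 member in BAT, for 65 members in SFAT and for 4 members in EFAT, and the differences of the diet response of Cth-/- mice between depots, called for 4 members between SFAT and BAT, 51 between EFAT and SFAT and 14 between EFAT and BAT.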

How the results depend on the processing

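Of 336 alternatives to the 21 counts of called members 232 stayed within 1.5 times the reported count, and of 3438 alternatives to 225 single calls 2881 kept direction and call, 556 lost the call and 1 reversed, Cox8a in SFAT (set B alone, -0.0789). The counts that moved are totals in both directions, and where no construction (fewer libraries or genes) shows the cause, the cause was not tested. For the diet in Cth-/- mice, BAT (4 calls) gave 13 with DESeq2, 10 with the set as a term and 0 in set B; SFAT (58) gave 33 in set B; and EFAT (14) gave 8 with only the groups compared, 5 with the set term and 0 in set A and 0 in set B. For the diet in Cth+/+ mice SFAT (0) gave 1 with DESeq2 and 18 in set B. For the genotype on the control diet BAT (0) gave 5 with DESeq2, 10 with the set term and 4 in set A, and SFAT (0) gave 6 in set A. On the cystine-free diet BAT (3) gave 5 with DESeq2, 6 with the set term and 0 in set B, and EFAT (41) gave 7 with the set term and 0 in set A. The interaction in BAT (1) gave 0 without the filter, 4 with DESeq2, 4 with the set term, 0 in set A and 0 in set B. In EFAT (4) it gave 2 with RLE scaling, 2 when scaled without mitochondrially encoded genes, 0 without the filter, 11 with DESeq2, 0 with the set term and 0 in set A. Between depots, SFAT minus BAT (4) gave 2 when scaled without mitochondrially encoded genes, 0 without the filter, 7 with DESeq2, 9 with the set term and 0 in set A. EFAT minus SFAT (51) gave 33 and 0 in the latter fits. EFAT minus BAT (14) gave 4 without the filter, 4 with the set term and 0 in set A. The white depots of Cth+/+ CTRL (8) gave 3, 5 and 0 in these 3 fits. Leaving out single replicates gave 2 to 8 for the diet in Cth-/- mice in BAT and 5 to 27 in EFAT, 0 to 5 for the diet in Cth+/+ mice in SFAT, 3 to 6 for the genotype on the cystine-free diet in BAT and 24 to 60 in EFAT, and 0 to 2 and 1 to 22 for the interactions of BAT and EFAT. Between depots each number was left out in all depots at once. That gave 0 to 6 for SFAT minus BAT, 7 to 59 for EFAT minus SFAT, 1 to 35 for EFAT minus BAT and 1 to 6 for the white depots of Cth+/+ CTRL.

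With the replicate number as a block, the depot differences were 11 for SFAT minus BAT, 62 for EFAT minus SFAT and 21 for EFAT minus BAT. Within a depot no paired analysis was possible, because no number is shared by the groups compared. Between depots the block is a paired analysis only if a number stands for the same mouse, which no label says. Of 96 comparisons of a library with the 4 libraries of the same genotype and diet in another depot, 49 correlated best with the same number, where chance gives 1 in 4. That is a hint of pairing from the data only. Cox6a2, Cox6b2 and Cox4i2 had few reads, and depth limits the precision of their values. Where an arm held 1 library, it was assumed to vary like the others. In set B this was so for Cth-/- CysF of BAT and SFAT and Cth-/- CTRL of EFAT. In set A it was so for Cth+/+ CTRL and Cth-/- CysF of EFAT. A lack of calls in those fits does not decide whether the calls depend on the set.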
